A study of Homo sapiens with 6 samples.

Results

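Neuronal adhesion, axon and synapse genes, 42 in number, were measured in HEK293 cells labelled as STAT5B knockout and as wild type. The rule was membership of a list of gene symbols, and all 42 were found among the 60609 genes in each file. The list was chosen with earlier results of these data known. HEK293 is a human embryonic kidney line transformed with adenovirus DNA, so these genes were measured outside a neuron.

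In neurons, adhesion molecules of the immunoglobulin superfamily such as NFASC, NRCAM and L1CAM bind ankyrins inside the membrane and contactins and CNTNAP proteins beside it, and so organise the axon initial segment and the nodes of Ranvier. Stathmins, collapsin response mediator proteins, tubulin isotypes and microtubule-associated proteins shape the growing axon. Synaptic vesicles fuse when synaptotagmin senses calcium and the SNARE proteins SNAP25, STX1A and VAMP2 pull vesicle and plasma membrane together, and neurexins and neuroligins join the membranes across the cleft. HEK293 cells are known to carry many transcripts of neuronal type.

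The STAT5B knockout group held 3 libraries and the wild-type group 3 libraries, both from HEK293 kept in DMEM with fetal bovine serum. Knockout cells were made with CRISPR/Cas9 as clones mutated on both STAT5B alleles, and the number of clones behind the 3 libraries is not stated. The protocol also names GS knockout clones without saying what they are, and all 6 sample titles carry the word Sham, also unexplained. The labels speak of triplicates without saying what was repeated, so p-values measure the spread between these libraries, which may be technical, and the effect of picking clones and that of losing STAT5B cannot be told apart. In such bulk RNA, fewer cells of a type and less RNA per cell cannot be told apart either.

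The knockout libraries held 17494958 to 21099813 estimated counts and the wild-type libraries 17686407 to 20279181. Mitochondrial transcripts took 1.38% to 2.43% of the counts in the knockout and 1.67% to 1.97% in the wild type. STAT5B mRNA averaged 61.8 ± 1.3 CPM in the knockout and 68 ± 2.98 CPM in the wild type (SD, n = 3 each; CPM are counts scaled to the TMM-adjusted library total), with an edgeR adjusted p of 0.0468 that missed 0.05 in 13 of 17 other settings. Counts over a whole gene do not check a small mutation. Of 11 fixed kidney progenitor markers 10 were above the level tested, among them SIX2 and SALL1, and their summed TPM (a level scaled by transcript length and library) was 180 to 194 in the knockout and 207 to 221 in the wild type. EYA1, a co-activator of early kidney development, rose by 1.12 on the log2 scale and SALL1, CITED1 and HOXD11 fell by 0.21, 0.33 and 0.27 (highest edgeR adjusted p = 0.0401). The call of EYA1 ended in 4 of 17 other settings, with effective-length offsets, on log2(TPM + 1), on log2(TPM + 0.1) and against a 1.2-fold change. Over the 17 its log2 fold change ran from 0.47 to 1.3. That of CITED1 ended only against a 1.2-fold change. In 8 of 17 other settings each, library omissions among them, the calls of SALL1 and HOXD11 ended. They ended without wild-type replicate 1 or 2 or knockout replicate 2 for both, without knockout replicate 1 for SALL1 and without wild-type replicate 3 for HOXD11.

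Mean levels of the neuronal genes over the 6 libraries ran between 0.00317 TPM for DCX and 529 TPM for UCHL1. UCHL1, a deubiquitinating enzyme that marks neurons and neuroendocrine cells, was the most abundant, with 551, 551 and 581 TPM in the knockout libraries and 511, 486 and 496 TPM in the wild type. STMN1, a stathmin that destabilises microtubules in dividing cells as well as in growth cones, followed with 396, 405 and 391 TPM in the knockout and 359, 361 and 366 TPM in the wild type. These 2 genes made up 68.2% to 69.4% of the TPM summed over all 42. The next were TUBB2B, a beta-tubulin of migrating neurons, with 75.4, 69.9 and 72.4 TPM in the knockout and 56.1, 51.1 and 54.2 TPM in the wild type, and VAMP2, the vesicle SNARE, with 38, 39.9 and 40.1 TPM in the knockout and 41.1, 38.1 and 41.7 TPM in the wild type. SYP, the vesicle membrane protein synaptophysin, came after it with 40.9, 34.7 and 35.3 TPM in the knockout and 23.2, 21.1 and 24.9 TPM in the wild type. For UCHL1, STMN1, TUBB2B and SYP all knockout values lay above all wild-type values, while the VAMP2 groups overlapped. SYP and VAMP2 did not keep their order in every library, since the SYP value passed that of VAMP2 in knockout replicate 1.

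In all, 16 of the 42 genes averaged more than 10 TPM over the 6 libraries, 18 lay between 1 and 10 TPM and 8 lay under 1 TPM. The middle of the ladder held adhesion molecules and cytoskeletal genes, such as NCAM1 with a mean of 15.4 TPM, CNTN1 with 15.2 TPM and MAPT, the microtubule-associated protein tau, with 14.2 TPM. Over all 6 libraries these means differed by less than the spread, and the order of NCAM1 and CNTN1 changed with the group. CNTN1 had 16, 18.2 and 18.2 TPM in the knockout, above NCAM1 with 13.6, 14.2 and 14.8 TPM. In the wild type NCAM1 had 15.2, 16.5 and 18.1 TPM, above CNTN1 with 13.7, 12.1 and 13.1 TPM. Summed over the 42 genes the level was 1384, 1377 and 1414 TPM in the knockout libraries and 1263, 1230 and 1264 TPM in the wild type, so the groups did not overlap. Most of this difference lay in UCHL1 and STMN1, and TUBB2B and SYP added to it, so the sum says little about the other genes.

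**Figure D1:**
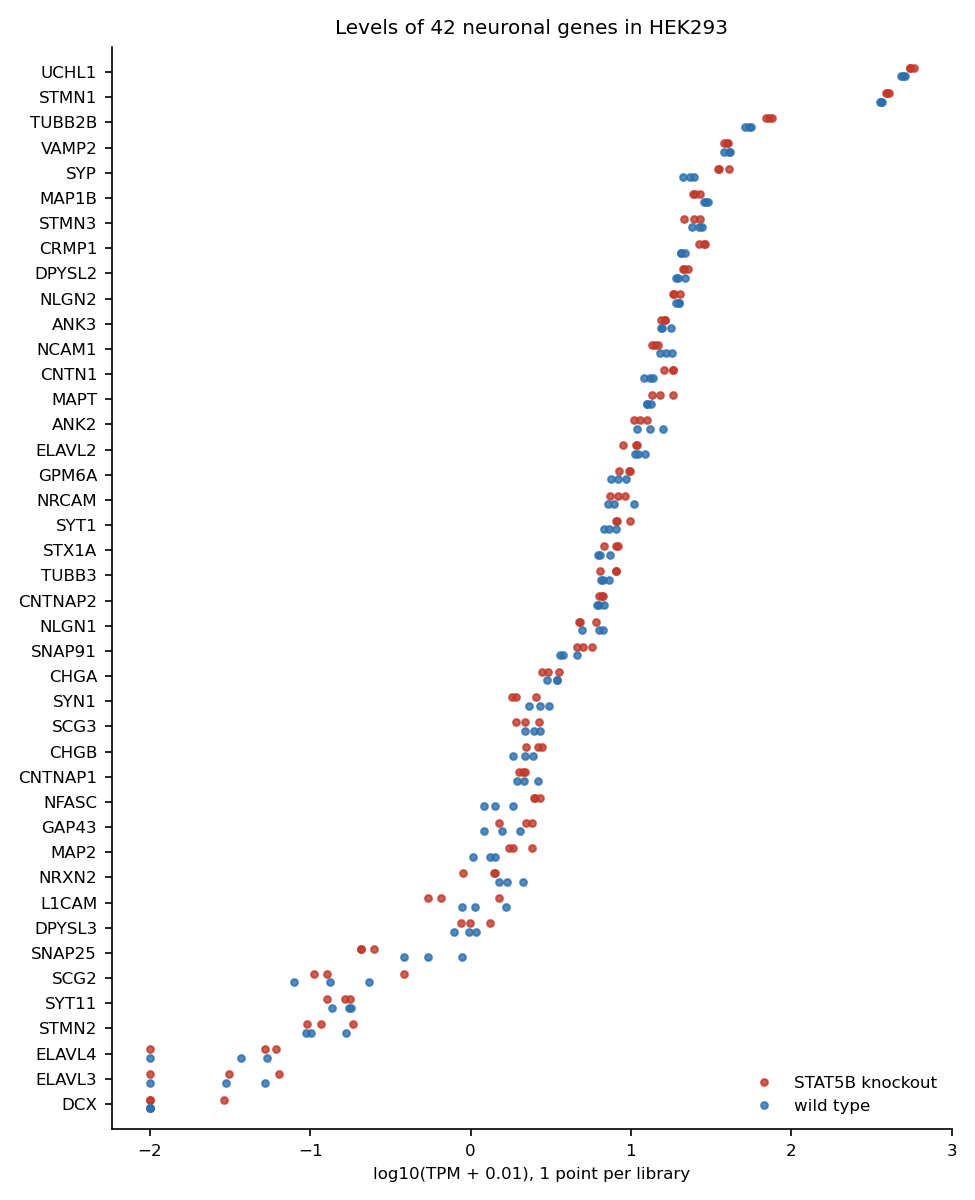
Levels of the 42 genes as log10(TPM + 0.01), 1 point per library, with STAT5B knockout in red above wild type in blue, sorted by the mean over 6 libraries. UCHL1 and STMN1 stand above 300 TPM in every library, and DCX, ELAVL3 and ELAVL4 sit at the left edge with 0 TPM in some libraries.

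The comparison asked which of these mRNAs differed between cells labelled STAT5B knockout and wild-type cells. Of the 35 genes above the level tested, 11 rose in the knockout, 0 fell and 24 did not pass edgeR's quasi-likelihood test at an adjusted p of 0.05. Among all 15958 genes tested, 12.1% rose and 11.4% fell (23.4% in either direction). Because the list was chosen with earlier results of these data known, its counts of rises and falls are not independent of the data. At an unadjusted p under 0.05, 12 of the 35 were higher and 1 was lower, DESeq2 gave 8 higher and 0 lower, and limma-voom gave 10 higher and 0 lower. Over all genes DESeq2 gave 1496 higher and 1542 lower, and limma-voom 1871 higher and 1774 lower. The median log2 fold change, knockout over wild type, was 0.12 over the 35 genes and 0.006 over all genes tested. The changes were small, with a median of 1.35-fold over the 11 that rose against 1.19-fold over all genes called. Of the 35 genes NFASC changed more than 2-fold and NFASC and SYP more than 1.5-fold, calls that 0.877% and 2.26% of all tested genes reached.

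For 14 of the 35 genes the 3 knockout values lay above the 3 wild-type values, and for 0 they lay below, where 19.9% and 18.7% of all tested genes did so (38.6% in either direction). SNAP25, under the level tested and so not among the 35, had all its knockout values below its wild-type values. The 11 that rose were NFASC and CNTN1 among adhesion molecules, GPM6A among membrane proteins, CRMP1, DPYSL2 and STMN1 of the growth cone, the tubulin TUBB2B, UCHL1, and the vesicle genes SYP, SNAP91 and SYT1. No synaptic adhesion, neuronal RNA-binding or granule gene was among them. The calls of CNTN1, CRMP1, TUBB2B and SYP held in each of 17 other settings, and that of UCHL1 in all but a test against a 1.2-fold change. Without wild-type replicate 1 the number that rose was 6, and over all genes it was 1339 in place of 1924.

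**Figure D2:**
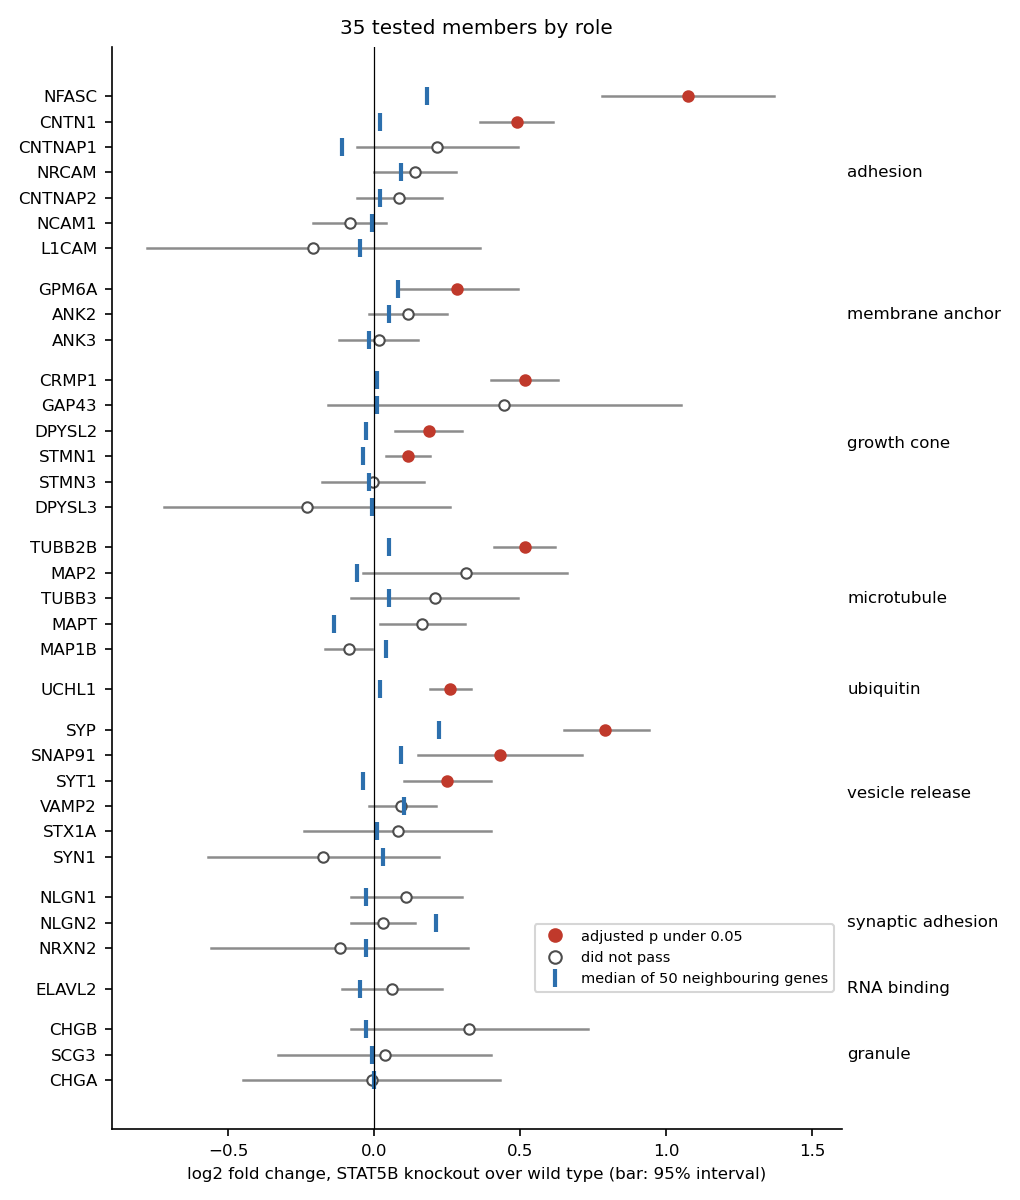
Log2 fold change, STAT5B knockout over wild type, of the 35 tested genes by role, with 95% intervals from edgeR. Filled points passed an adjusted p of 0.05 and blue ticks give the median of 50 neighbouring tested genes on the chromosome. All 11 filled points lie right of 0, and the largest are NFASC at 1.07 and SYP at 0.79.

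Position on the chromosome was set beside each call, because genes of chromosome 1 were shifted in the knockout, with a median log2 fold change of 0.149 over 1574 tested genes, 35.8% of which rose. NFASC and STMN1 lie there, as do SYT11 and ELAVL4, which were under the level tested. The median of the 50 nearest tested genes was 0.18 around NFASC, −0.04 around STMN1, 0.22 around SYP and 0.09 around SNAP91, and between −0.04 and 0.08 around the other 7 that rose. Each of the 11 stood above its neighbours, NFASC by 0.89 and SYP by 0.58 on the log2 scale, differences that were not tested. Since the 11 were picked as higher, this was largely fixed in advance. Of all 35 tested genes, 26 stood above their neighbours, a count that includes these 11. No share over all tested genes was taken to set beside it. Over 100 neighbours in place of 50, the median around SYP was 0.05. Outside chromosome 1, 9 of 33 tested genes rose and 0 fell, where 9.45% and 12.1% of all tested genes outside it did so.

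Among the adhesion molecules NFASC and CNTN1 rose. NFASC, neurofascin of the axon initial segment and node (ENSG00000163531, plus strand of chromosome 1, 204828651 to 205022822, hg38), had 8.24, 8.21 and 8.63 CPM in the knockout and 3.33, 4.46 and 4.08 CPM in the wild type. The lowest knockout value was well above the highest wild-type value. The log2 fold change was 1.07 (SE 0.136, edgeR adjusted p = 8.64e-05), and 0.77 with an adjusted p of 0.0565 by limma on log2(TPM + 0.1). CNTN1, contactin 1, a lipid-anchored partner of neurofascin (ENSG00000018236, plus strand of chromosome 12, 40692442 to 41072418), had 45.3, 50.5 and 46.1 CPM in the knockout and 33.5, 33.1 and 34.8 CPM in the wild type. The groups did not overlap, and the log2 fold change was 0.49 (SE 0.0579, edgeR adjusted p = 5.11e-05).

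The third partner, CNTNAP1 or Caspr, which lies beside the node, did not pass, although its groups did not overlap. It had 7.04, 5.81 and 6.69 CPM in the knockout and 5.70, 5.45 and 5.66 CPM in the wild type, with an edgeR adjusted p of 0.266 and a 95% interval of −0.06 to 0.49 for the log2 fold change. CNTNAP2, which clusters potassium channels beside the node, had a log2 fold change of 0.08 with an interval of −0.06 to 0.23. NRCAM, a close relative of neurofascin, averaged 31.3 ± 1.35 CPM in the knockout and 28.3 ± 1.91 CPM in the wild type (SD, n = 3 each), with an edgeR adjusted p of 0.146. With length and GC offsets it passed (log2 fold change 0.20, adjusted p = 0.0419). L1CAM, the founding member of this family, had 34 to 51 counts in the knockout libraries and 37 to 61 in the wild type, and its interval of −0.78 to 0.36 was too wide to resolve a change as small as that of NRCAM. NCAM1, the neural cell adhesion molecule, had an interval of −0.21 to 0.04.

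Of the proteins that anchor or shape the axonal membrane, only GPM6A passed. GPM6A, a proteolipid that promotes filopodia and neurite growth, had 14.8, 12.5 and 14.7 CPM in the knockout and 10.7, 11.7 and 11.9 CPM in the wild type. The groups stood apart by a small margin, and the log2 fold change of 0.28 (SE 0.0952, edgeR adjusted p = 0.0453) lost its call in 13 of 17 other settings, with DESeq2 (adjusted p = 0.114) and limma-voom (0.0634) among them. Leaving out any library other than knockout replicate 2 ended it as well, with adjusted p of 0.0639 to 0.157. ANK3, the ankyrin that gathers neurofascin and sodium channels at the initial segment, had a log2 fold change of 0.02 with an interval of −0.12 to 0.15. ANK2, the ankyrin of the distal axon, had 0.12 with an interval of −0.02 to 0.25, and passed with length and GC offsets (0.23, adjusted p = 0.0208).

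Among growth cone genes CRMP1, DPYSL2 and STMN1 rose. CRMP1, a collapsin response mediator protein that relays semaphorin signals (ENSG00000072832, minus strand of chromosome 4, 5748084 to 5893058), had 51.6, 47.6 and 50.4 CPM in the knockout and 34.1, 36.2 and 34.3 CPM in the wild type. All knockout values exceeded all wild-type values, with a log2 fold change of 0.52 (SE 0.0545, edgeR adjusted p = 2.07e-05). CRMP1 shares 159 exonic bases with EVC on the other strand, so some reads could belong to either gene if the counting did not use strand. DPYSL2, the family member that carries tubulin to growing microtubules, had 61.9, 63.3 and 64.1 CPM in the knockout and 54.2, 52.5 and 59.6 CPM in the wild type. Its log2 fold change was 0.19 (SE 0.0531, edgeR adjusted p = 0.0210), and the call ended when wild-type replicate 1 (0.0874), wild-type replicate 2 (0.104) or knockout replicate 2 (0.0578) was left out. It also ended with effective-length offsets (0.126), on log2(TPM + 1) (0.404, at a log2 fold change of 0.11), on log2(TPM + 0.1) (0.396) and against 1.2-fold, which makes 7 of 17 settings. DPYSL2 shares 71 exonic bases with PNMA2 on the other strand.

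The third family member, DPYSL3, had 34, 63 and 51 counts in the knockout and 45, 67 and 65 in the wild type, and its interval of −0.72 to 0.26 holds the value of DPYSL2 but not that of CRMP1. STMN1 had 224, 237 and 224 CPM in the knockout and 209, 211 and 213 CPM in the wild type. Its log2 fold change was 0.12 (SE 0.0336, edgeR adjusted p = 0.0228), and 0.02 with length and GC offsets (adjusted p = 0.616). The call also ended without knockout replicate 2 (0.107) and without each wild-type replicate in turn (0.0507 to 0.0945). STMN3, a stathmin of the Golgi in neurons, did not pass, with an interval of −0.18 to 0.17. GAP43, the growth-associated protein of axon tips, was low with 26, 47 and 41 counts in the knockout and 26, 36 and 23 in the wild type, and its interval of −0.16 to 1.05 spans 0.

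Among tubulins and microtubule-associated proteins TUBB2B rose. TUBB2B (ENSG00000137285, minus strand of chromosome 6, 3224261 to 3231730) had 79.9, 75.4 and 76.3 CPM in the knockout and 56.3, 51.2 and 54.7 CPM in the wild type. The groups were well apart, and the log2 fold change was 0.51 (SE 0.0485, edgeR adjusted p = 8.57e-06). TUBB2B shares 174 exonic bases with PSMG4 on the other strand. TUBB2A is a near-identical neighbour of TUBB2B, so reads may be split between them, and it also rose, by 0.20 (edgeR adjusted p = 0.0318), a call that ended in 9 of 17 other settings. Those included DESeq2 (adjusted p = 0.0701), effective-length offsets, log2(TPM + 1) (0.306, at a log2 fold change of 0.11) and leaving out knockout replicate 2, knockout replicate 3, wild-type replicate 1 or wild-type replicate 3. TUBB3, the beta-tubulin used as a neuronal marker, averaged 6.69 ± 0.812 CPM in the knockout and 5.81 ± 0.298 CPM in the wild type (SD, n = 3 each) and overlapped between groups (edgeR adjusted p = 0.291). A readthrough transcript annotated as another gene covers 1584 of its exonic bases.

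MAPT had 23.2, 23.9 and 26.0 CPM in the knockout and 21.9, 21.3 and 22.0 CPM in the wild type. Its groups stood apart, but the log2 fold change of 0.16 did not pass (edgeR adjusted p = 0.104). MAP2, the dendritic counterpart of tau, likewise stood apart at a low level, with 4.09, 3.98 and 4.34 CPM in the knockout and 3.33, 3.46 and 3.2 CPM in the wild type (log2 fold change 0.31, edgeR adjusted p = 0.190). MAP1B, a large protein that stabilises microtubules in growing axons, went the other way with 196, 181 and 185 CPM in the knockout and 200, 202 and 196 CPM in the wild type. It did not pass with all libraries (log2 fold change −0.09, edgeR adjusted p = 0.0944) and was called lower without knockout replicate 1 (−0.12, adjusted p = 0.0363).

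UCHL1 (ENSG00000154277, plus strand of chromosome 4, 41256413 to 41268455) had 296, 305 and 310 CPM in the knockout and 258, 250 and 253 CPM in the wild type. Replicates differed by about 2% (coefficients of variation 2.34% in the knockout and 1.66% in the wild type), so a log2 fold change of 0.26 (SE 0.0318) gave an edgeR adjusted p of 6.71e-05. The change, 1.2-fold, was among the smaller of the 11.

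**Figure D3:**
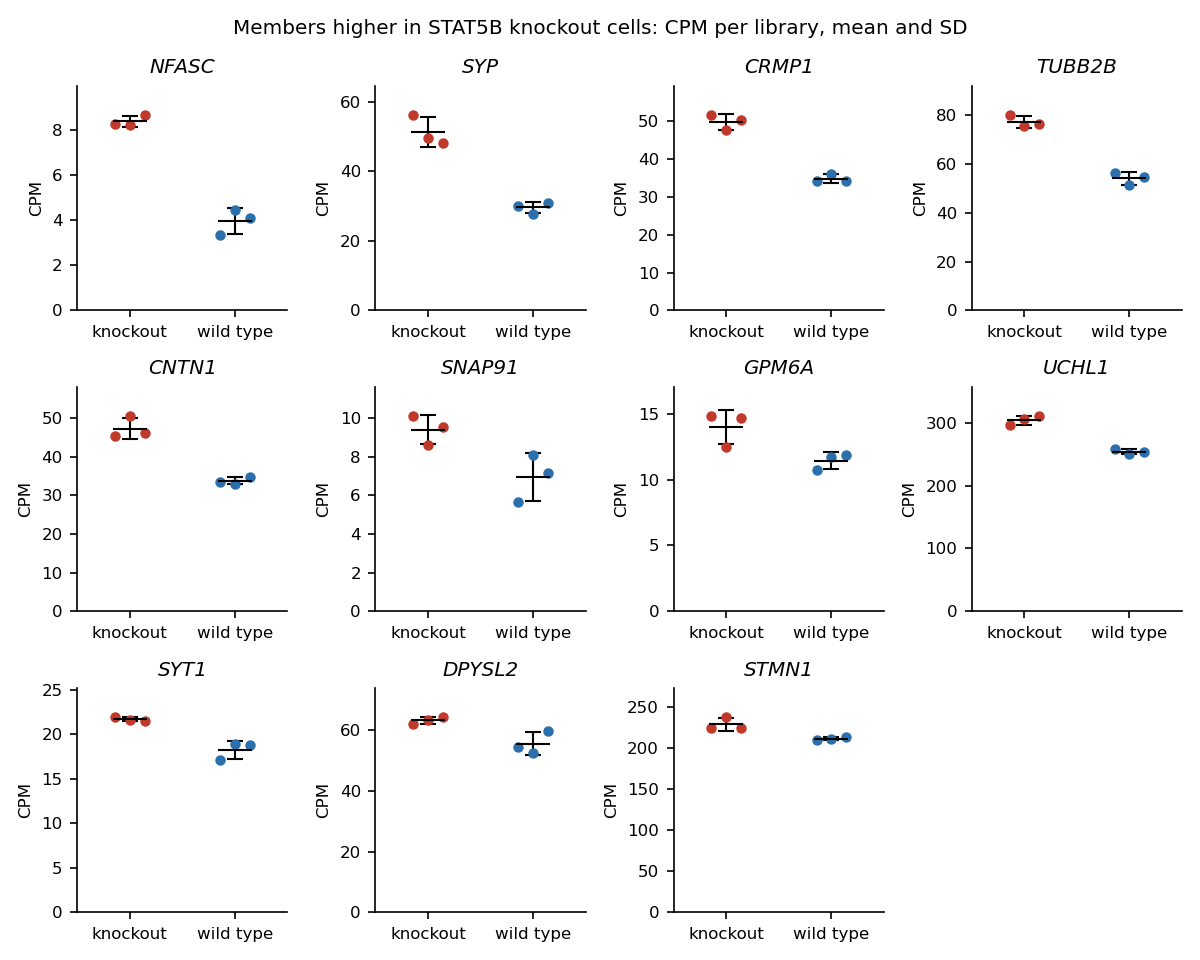
CPM in each library for the 11 genes higher in the STAT5B knockout, with the knockout left of the wild type, the mean as a bar and the SD as whiskers (n = 3 each). The groups do not overlap in any of the 11 panels, and the gap is widest relative to level for NFASC, with 8.36 ± 0.235 CPM in the knockout and 3.96 ± 0.575 CPM in the wild type.

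Of the 8 genes of the synaptic vesicle and its release, SYP, SNAP91 and SYT1 rose. SYP (ENSG00000102003, minus strand of chromosome X, 49187804 to 49200259) had 56.1, 49.5 and 48.0 CPM in the knockout and 30.1, 27.7 and 31.0 CPM in the wild type. The groups were far apart, with a log2 fold change of 0.79 (SE 0.0680, edgeR adjusted p = 4.19e-06), the smallest adjusted p of the 35. SNAP91, the clathrin assembly protein AP180 that rebuilds vesicles after fusion, had 10.1, 8.59 and 9.54 CPM in the knockout and 5.64, 8.08 and 7.14 CPM in the wild type. Its lowest knockout value was close to the highest wild-type value, and the log2 fold change of 0.43 (SE 0.133, edgeR adjusted p = 0.0303) lost its call in 9 of 17 other settings (0.0512 in DESeq2). These included leaving out knockout replicate 1 (0.109), knockout replicate 3 (0.0661), wild-type replicate 1 (0.133) or wild-type replicate 3 (0.0614). SYT1, the calcium sensor of fast release, had 21.9, 21.6 and 21.5 CPM in the knockout and 17.1, 18.9 and 18.8 CPM in the wild type (log2 fold change 0.25, SE 0.0705, edgeR adjusted p = 0.0211), and its call ended in 8 settings (0.0731 in DESeq2). Among them were the omission of knockout replicate 1 (0.0671), knockout replicate 2 (0.0508) and wild-type replicate 1 (0.0947).

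The SNARE genes above the level tested, VAMP2 and STX1A, did not pass. VAMP2 averaged 48.5 ± 2.17 CPM in the knockout and 45.5 ± 1.89 CPM in the wild type (SD, n = 3 each), and the interval of −0.02 to 0.21 ends below the change of SYP. STX1A, the plasma membrane SNARE, had an interval of −0.24 to 0.40, and it shares 662 exonic bases with the much more abundant BUD23 on the other strand. SYN1, synapsin, which ties vesicles to the cytoskeleton, had 54, 54 and 57 counts in the knockout and 59, 66 and 66 in the wild type (log2 fold change −0.17, interval −0.57 to 0.22, edgeR adjusted p = 0.545).

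Promoter sequences were read beside these results, because many neuronal genes are kept low outside neurons by REST, a repressor that binds a long element, and because STAT5 binds TTCNNNGAA. REST itself fell, with 59.2 CPM in the knockout and 70.4 CPM in the wild type on average (log2 fold change −0.25, SE 0.0493, edgeR adjusted p = 0.00226). RefSeq promoter windows on GRCh38.p14, from 250 bases before to 50 bases after each annotated start, were at hand for 33 of the 42 genes, with 81 windows in all. The letters TTCNNNGAA, which read the same on both strands, occurred in 3 of these windows, for GPM6A, GAP43 and ELAVL4, a share of 3.70% against 7.66% of 35116 windows of all genes. The left part of the REST element, CAGCACC, occurred on either strand in 5 windows (6.17% against 7.75%) and the right part, GGACAG, in 19 (23.5% against 20.5%). Both parts in their usual order with 2 bases between them, a spacing added to the search after its parts had been counted, occurred in the window of 1 gene, SYN1, and in 0.0513% of all windows.

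The 250 bases before the start are printed 5′ to 3′ for SYP and TUBB2B, the genes with the smallest p and 1 annotated start each, for SYN1, the 1 gene with both parts of the REST element in that order and spacing, and for GPM6A, the gene among those that rose whose window held TTCNNNGAA. Capitals mark matches to these 3 motifs. The SYP (chrX:49200194-49200443, minus strand) and TUBB2B (chr6:3227654-3227903, minus strand) sequences held none of them. In SYN1 (chrX:47619858-47620107, minus strand) CAGCACC began 231 and GGACAG 222 bases before the start, and in GPM6A (chr4:175712571-175712820, minus strand) TTCNNNGAA began 197 bases before 1 of 4 annotated starts. Which start the cells used was not measured, and a match of letters is not a bound site.
SYP: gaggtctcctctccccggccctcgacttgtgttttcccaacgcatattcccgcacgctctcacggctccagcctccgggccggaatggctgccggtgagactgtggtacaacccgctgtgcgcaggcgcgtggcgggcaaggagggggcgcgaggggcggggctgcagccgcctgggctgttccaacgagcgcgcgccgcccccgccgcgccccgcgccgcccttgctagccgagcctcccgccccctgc
TUBB2B: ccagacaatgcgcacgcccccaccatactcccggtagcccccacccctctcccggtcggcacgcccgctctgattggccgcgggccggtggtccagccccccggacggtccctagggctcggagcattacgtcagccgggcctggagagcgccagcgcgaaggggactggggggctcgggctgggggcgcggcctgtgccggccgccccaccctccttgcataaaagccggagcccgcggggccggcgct
SYN1: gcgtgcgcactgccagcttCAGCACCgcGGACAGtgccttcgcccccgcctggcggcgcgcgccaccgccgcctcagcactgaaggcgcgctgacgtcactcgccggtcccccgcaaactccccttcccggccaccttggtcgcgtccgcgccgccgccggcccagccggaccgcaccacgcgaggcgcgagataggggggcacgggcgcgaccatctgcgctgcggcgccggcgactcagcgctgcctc
GPM6A: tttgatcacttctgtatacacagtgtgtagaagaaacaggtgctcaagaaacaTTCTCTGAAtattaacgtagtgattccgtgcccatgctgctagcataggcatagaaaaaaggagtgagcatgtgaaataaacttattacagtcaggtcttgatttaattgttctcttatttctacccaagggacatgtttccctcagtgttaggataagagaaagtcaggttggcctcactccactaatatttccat

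Genes of synaptic adhesion, neuronal RNA binding and secretory granules did not pass in either direction. NLGN2, the neuroligin of inhibitory synapses, averaged 50 ± 2.24 CPM in the knockout and 48.9 ± 1.43 CPM in the wild type (SD, n = 3 each), and its interval of −0.08 to 0.14 was among the narrowest. Its 50 neighbours on chromosome 17 had a median log2 fold change of 0.21. NLGN1, the neuroligin of excitatory synapses, had an interval of −0.08 to 0.30, and NRXN2, a presynaptic neurexin, one of −0.56 to 0.32. ELAVL2, an RNA-binding protein of the Hu family, was the only member of its family above the level tested, with 22.7, 19.1 and 22.3 CPM in the knockout and 21, 19.5 and 21 CPM in the wild type. These groups overlapped (log2 fold change 0.06, interval −0.11 to 0.23).

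The granule genes were low. CHGA, chromogranin A, had 2.46 to 3.69 CPM in the knockout and 2.88 to 3.40 CPM in the wild type, and SCG3, which carries chromogranin to granule membranes, had 3.75 to 4.32 CPM in the knockout and 3.40 to 4.51 CPM in the wild type. CHGB, chromogranin B, had 4.20, 4.08 and 3.31 CPM in the knockout and 2.60, 3.51 and 3.15 CPM in the wild type, with an interval of −0.08 to 0.73. This interval holds both 0 and the value of CRMP1.

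The remaining 7 genes were under the level tested, among them several that define neurons. DCX, doublecortin of migrating neurons, had 2 counts in the knockout, both in replicate 1, and 0 counts in the wild type. ELAVL3 had 4 counts over the knockout libraries and 3 over the wild type, ELAVL4 had 2 and 2, STMN2 had 9 and 8, and SCG2, a granule protein, had 10 and 11. SYT11, a synaptotagmin that does not sense calcium, had 28 counts in each group. SNAP25, the SNARE that marks neurons, differed from the rest, with 5, 5 and 4 counts in the knockout and 17, 8 and 12 in the wild type. The groups did not overlap, and with no low-count filter its log2 fold change was −1.36 (SE 0.559, edgeR adjusted p = 0.0925). Leaving out wild-type replicate 2 brought it above the filter with an edgeR adjusted p of 0.0441, and leaving out a knockout replicate gave 0.102 to 0.135. Wild-type replicate 2 held the lowest wild-type count of SNAP25, which passed the filter only through the wild-type libraries. The value of 0.0441 rests on that omission and that filter, so it is no support for a fall.

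The deposited files also give an effective length per gene and library, which enters TPM and not CPM. It differed between groups without overlap for 6 of the 35 genes, against 11.7% of all tested genes, and this readout was looked at after seeing that some genes moved differently in TPM and in CPM. For STMN1 it was 868, 882 and 889 bases in the knockout and 953, 951 and 943 bases in the wild type, a difference of −7.32% between group means (SD 10.5 bases in the knockout and 5.5 bases in the wild type). For MAP2 it was 3429, 3480 and 2788 bases in the knockout and 4131, 3965 and 5078 bases in the wild type. MAP2 in TPM was 1.83, 1.72 and 2.42 in the knockout and 1.32, 1.42 and 1.02 in the wild type, so it was also apart on this scale. ANK2 had a greater length in the knockout, with 7506, 7538 and 7101 bases in the knockout and 6355, 7067 and 5587 in the wild type. DPYSL3 had 3033, 5287 and 3436 bases in the knockout and 5368, 5362 and 5344 in the wild type, from few counts. For GAP43 and CHGB the differences were −0.387% and −0.42%. These differences were not tested, and the way the length was derived is not stated.

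**Figure D4:**
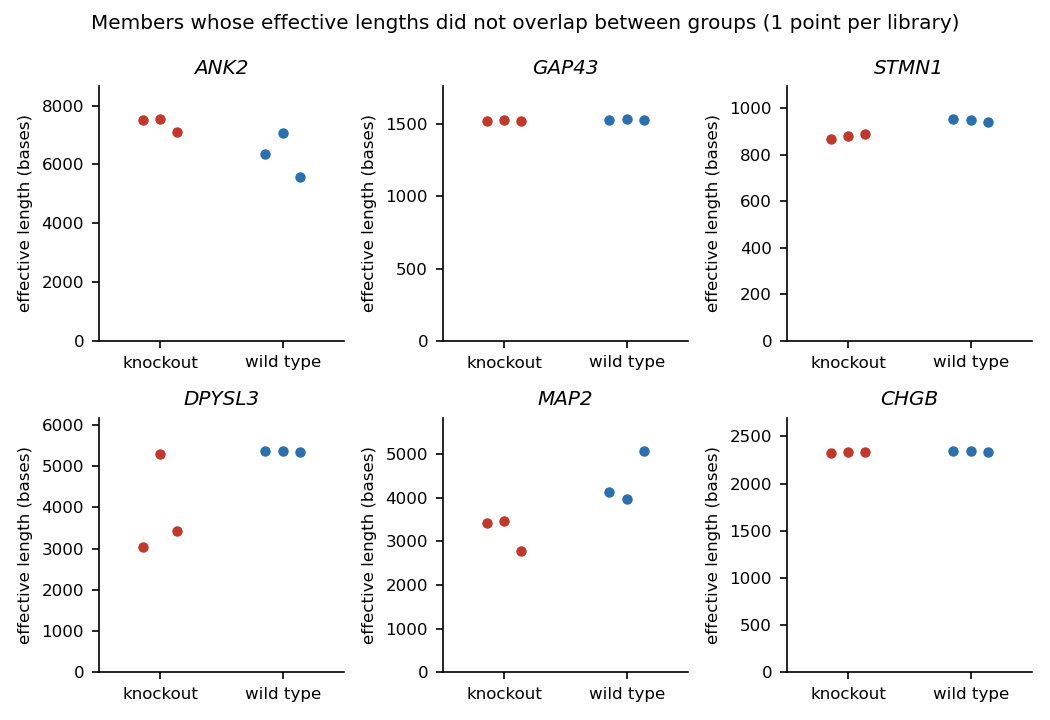
Effective length in bases per library for the 6 genes whose groups did not overlap, with the STAT5B knockout left of the wild type. STMN1 shows a tight separation, 868 to 889 bases in the knockout and 943 to 953 in the wild type, whereas GAP43 and CHGB differ by −0.387% and −0.42%.

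The wider machinery around these genes held calls in both directions. Of 180 other genes of the same processes, 135 were above the level tested, 19 of which rose (14.1%, against 12.1% of all tested genes) and 28 fell (20.7%, against 11.4%), and their median log2 fold change was 0.02. The lists that follow are small, and their counts are to be read beside these shares of all genes. With length and GC offsets 15 of the 135 fell and 1688 of all 15958 tested genes did, shares close to each other, so the larger share of falls did not hold there. In the axon cytoskeleton list 5 of 23 tested genes rose and 5 fell. TUBA1A, the alpha-tubulin that pairs with beta-tubulins in neurons, rose by 0.48, MAP1A, a relative of MAP1B, by 0.43 and FEZ1, a kinesin adaptor of axonal transport, by 0.57 on the log2 scale. MARCKS, an actin-binding substrate of protein kinase C, TTC3 and the neuronal kinesin KIF5C fell by 0.21, 0.12 and 0.22. Among adhesion and guidance genes 3 of 17 rose and 4 fell. SEMA3C and SEMA3A, secreted semaphorins, rose by 0.69 and 0.46 and CADM2 by 0.73, while PLXNA1, a semaphorin receptor, ROBO1 and its ligand SLIT2 fell by 0.28, 0.19 and 0.15. The highest edgeR adjusted p among the genes named here was 0.0377, for CADM2. CADM2 lost its call in 11 of 17 other settings, which included DESeq2, both TPM scales and the omission of any library but knockout replicate 3, and its level was 2.58 ± 0.0814 TPM in the knockout and 2.61 ± 1.01 TPM in the wild type (SD, n = 3 each). KIF5C lost its call in 8, which included leaving out knockout replicate 2, wild-type replicate 1 or wild-type replicate 3. The calls of TUBA1A and FEZ1 held in all 17, and that of MARCKS in all but the 1.2-fold test. SEMA3A and MAP1A lost theirs in 3 and SEMA3C in 2, on the TPM scales or against 1.2-fold, while PLXNA1 lost its call in 2, ROBO1 and TTC3 in 4 and SLIT2 in 5, none of them an omission of a library.

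Of 37 tested genes of the vesicle cycle 4 rose and 7 fell. SV2A, a vesicle glycoprotein on chromosome 1, rose by 0.39, SYNGR3, a synaptogyrin of the vesicle membrane, by 0.66 and DNM1, the dynamin of vesicle retrieval, by 0.22 on the log2 scale. The 50 neighbours of SV2A had a median of 0.18. UNC13A, which primes vesicles, fell by 1.01 to 3.21 CPM in the knockout, against 6.46 CPM in the wild type, and the active zone scaffolds BSN and PCLO fell by 0.40 and 0.31. The edgeR adjusted p of these 6 genes were 0.0324 or lower. The fall of BSN did not hold on TPM scales, where its log2 fold change was 0.04 with a pseudocount of 1. BSN had 5.39, 1.5 and 1.7 TPM in the knockout and 2.57, 2.36 and 2.28 TPM in the wild type. Only knockout replicate 1 was above the wild type on this scale, while in CPM all knockout values lay below all wild-type values. UNC13A and PCLO lost their calls on that scale but not their direction, with log2 fold changes of −0.44 (adjusted p = 0.086) and −0.39 (adjusted p = 0.116). PCLO lost its call with length and GC offsets as well (−0.12, adjusted p = 0.105). The call of SYNGR3 ended in 6 of 17 other settings, which included DESeq2 and leaving out knockout replicate 2, knockout replicate 3, wild-type replicate 1 or wild-type replicate 2. That of DNM1 ended in 5, which included both TPM scales and leaving out wild-type replicate 3, and that of SV2A in 3, which included both TPM scales.

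In the ankyrin and spectrin list 1 of 12 tested genes rose, ANK1 by 0.41, and 4 fell, among them the spectrins SPTBN1 and SPTAN1, which tie ankyrins to actin, at log2 fold changes of −0.23 and −0.10 and the scaffold DLG1 at −0.24 (highest edgeR adjusted p = 0.0272). The median of the 50 neighbours was −0.10 around SPTAN1, equal to its own change, −0.15 around DLG1 and 0.02 around both SPTBN1 and ANK1. The calls of SPTBN1 and SPTAN1 ended with length and GC offsets, and that of SPTAN1 also without knockout replicate 1 or 2 or wild-type replicate 1 or 2. The calls of ANK1 and DLG1 ended in 4 of 17 settings, which included both TPM scales. Of 15 tested synaptic organisers ADGRL2, a latrophilin on chromosome 1, rose by 0.15, while ADGRL1 and the postsynaptic scaffold SHANK3 fell by 0.30 each. The median of the 50 neighbours was 0.17 around ADGRL2, so it moved no more than its surroundings, −0.01 around ADGRL1 and −0.07 around SHANK3. Of 4 tested granule genes CPE, a prohormone-processing enzyme, rose by 0.38. Of 10 tested neural RNA-binding genes PTBP2, the neuronal splicing regulator on chromosome 1, rose by 0.33 and RBFOX2 and MSI2 fell by 0.12 and 0.14. Calls that ended when 1 library was left out were those of ADGRL2 (knockout replicate 2 or wild-type replicate 1), RBFOX2 (wild-type replicate 1 or 2) and MSI2 (knockout replicate 1 or wild-type replicate 3). REST was 1 of 3 genes that fell among 10 of its partners and regulators, with the phosphatases CTDSP1 and CTDSPL, which act on REST, at log2 fold changes of −0.22 and −0.16, while the deacetylases HDAC1, on chromosome 1, and HDAC2 rose by 0.20 each. The 50 neighbours of HDAC1 had a median of 0.12. The call of CTDSPL ended in 11 of 17 other settings, which included DESeq2, length and GC offsets and the omission of any library but knockout replicate 3. Of 7 tested neural transcription factors INSM1, a factor of neuroendocrine differentiation, rose by 0.85 to 13.9 CPM in the knockout, against 7.69 CPM in the wild type (edgeR adjusted p = 7.38e-05), and SOX4 fell by 0.25.

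**Figure D5:**
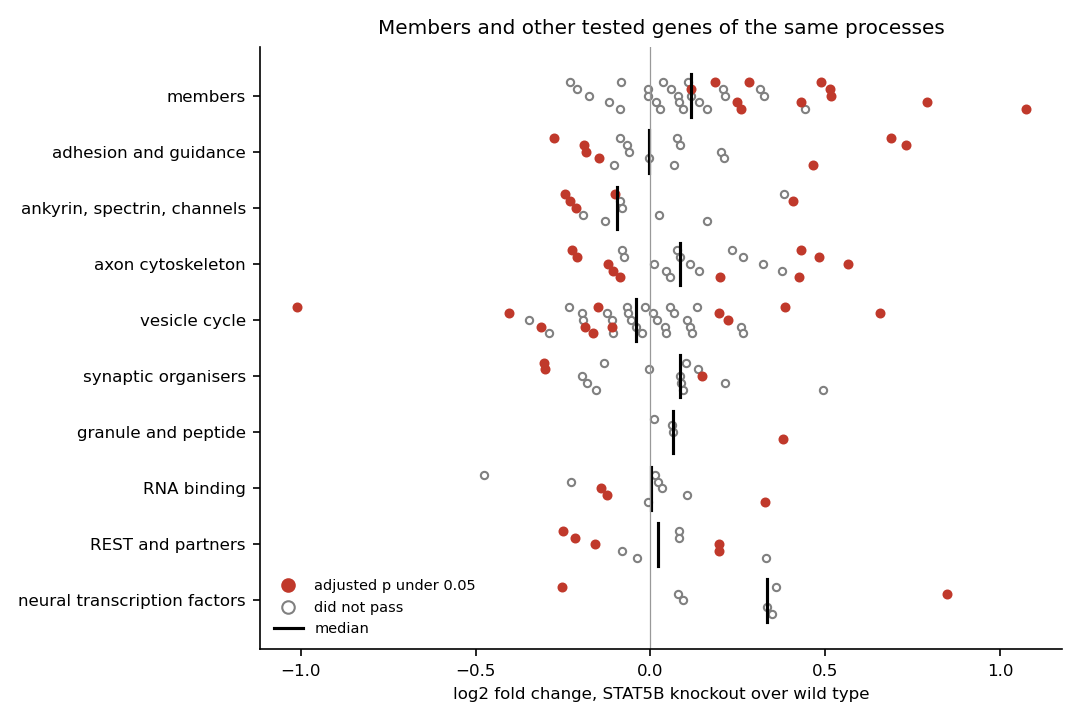
Log2 fold change, STAT5B knockout over wild type, of the 35 tested members and of the other tested genes of the same processes by list, 1 point per gene. Filled points passed an edgeR adjusted p of 0.05 and the bar is the median, which is 0.12 for the members and 0.02 over the other 135 genes.

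Beside these results stand the markers of other cell types, whose part in the results was not tested. Of 10 markers of mature neurons 3 were above the level tested and 0 passed. The list's summed level was 13.0 to 16.1 TPM in the knockout and 17.2 to 20 TPM in the wild type, with GAD1 the most abundant member, while SLC17A6 and CAMK2A were at 0 counts in every library. SOX10, MOG and MAG of oligodendrocytes and Schwann cells and TH, DBH and PHOX2A of the adrenal medulla were at 0 in every library, and the summed level of these lists was 3.42 to 4 and 0.153 to 0.661 TPM in the knockout and 3.30 to 3.93 and 0.295 to 1.11 TPM in the wild type. Astrocyte markers summed to 1.35 to 1.91 TPM in the knockout and 1.61 to 2.39 TPM in the wild type, with S100B at 0. Fibroblast, haematopoietic and endothelial markers, of which 0 passed, summed to at most 6.62, 1.51 and 0.104 TPM in the knockout and 6.61, 1.83 and 0.335 TPM in the wild type.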

How the data were processed

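Messenger RNA libraries from 3 STAT5B knockout and 3 wild-type HEK293 samples were compared, grouped by the genotype label. Per the submitters' processing notes the tools were FastQC, fastp, DRAGEN and Picard, with no version or role, and the build was hg38. Annotation, counting rules and strand use were not stated. The deposited estimated counts per gene were not whole for 7.12% to 7.64% of values and were rounded. The TPM deposited by the authors were used for levels and for an alternative. Offsets came from the deposited lengths and effective lengths (bases).

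edgeR 4.0.16 (R 4.3.3) was run on all genes kept by filterByExpr (minimum count 10, total 15), with TMM scaling, the quasi-likelihood test and Benjamini-Hochberg adjustment over 15958 genes. Another 44651 were not tested. Fold changes are knockout over wild type. Intervals are 95%. The fit was tested on simulated data. Replicates differed by more than sampling noise (chi-square per degree of freedom 2.45 to 7.5 where a pair held 20 counts or more), and each library was counted once. Symbols came from a name table and positions from GENCODE on the same build. Promoter sequences are from RefSeq (GRCh38.p14).

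The genes and lists were chosen with earlier results of these data known. By rule, genes that passed and the 5 most abundant are given in every library, and from each wider list all that passed where at most 5 did, otherwise the 3 with the smallest p per direction. Some genes of these lists are not reported here by name. TUBB2A, and the marker genes that passed, were named after their values were seen. The settings varied were scaling (RLE), the tool (DESeq2 1.42.0, or voom in limma 3.58.1), no filter, a filter of 1 CPM in 3 libraries, effective-length offsets, offsets for length and GC content (splines of 5 degrees of freedom), limma on log2(TPM + 1) and log2(TPM + 0.1), a replicate block, testing against 1.2-fold, and leaving out each library. Effective lengths of the groups and the spacing of the REST element parts were examined after values had been seen.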

Additional observations from a re-analysis of the deposited data

How the results depend on the processing

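Of the 35 genes 11 rose, against 7 in limma on log2(TPM + 1), 7 with effective-length offsets, 6 on log2(TPM + 0.1) and 5 in the test against a 1.2-fold change. Leaving out 1 library gave 6 to 9 that rose and 0 to 1 that fell. The fall without knockout replicate 1 was MAP1B. That without wild-type replicate 2 was SNAP25, which is not among the 35, as it was under the level tested with all 6 libraries. Over all genes, 1924 rose and 1818 fell, against 488 and 1135 on log2(TPM + 1), 483 and 1139 on log2(TPM + 0.1), 891 and 843 with effective-length offsets, and 155 and 140 against a 1.2-fold change. Leaving out 1 library gave 1339 to 1789 of all genes that rose and 1279 to 1786 that fell, so calls were lost in general. The TPM scales moved the median of all genes to −0.059 and −0.067, and rises made up 30.1% and 29.8% of their calls against 51.4% in the count test. Of the 135 other genes, 19 rose and 28 fell, against 4 and 12 on log2(TPM + 1), 4 and 11 on log2(TPM + 0.1), 11 and 10 with effective-length offsets, 4 and 1 against a 1.2-fold change, and 15 that fell with length and GC offsets. With those last offsets 1688 of all 15958 tested genes fell, a share close to that of the 135. Leaving out 1 library gave 13 to 18 of the 135 that rose and 18 to 26 that fell. BSN changed sign with effective-length offsets (log2 fold change 0.19), in limma on log2(TPM + 1) (0.04) and on log2(TPM + 0.1) (0.00), and SYNGR1, higher in the count test, had −0.01 and −0.02 on the TPM scales. The causes were not tested.

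The log2 fold change of STAT5B stayed negative in each of the 17 settings, and its call ended with DESeq2 (−0.14), no low-count filter (−0.14), effective-length offsets (−0.24), log2(TPM + 1) (−0.30), log2(TPM + 0.1) (−0.30), length and GC offsets (−0.10), the replicate block (−0.14), the 1.2-fold test (−0.14) and without any library but wild-type replicate 2 (−0.17 to −0.12 over all 6 omissions). With the replicate number as a block, 10 of the 35 genes rose and 0 fell, the lost call being GPM6A (adjusted p = 0.0531), and 1887 and 1773 of all genes rose and fell. Correlations of same-numbered libraries' deviations were −0.049, 0.105 and 0.029, so the numbers were not taken to pair the samples, and not every library correlated best with its own number. Genes with few counts, such as L1CAM, GAP43 and NRXN2, could show only large changes at this depth.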
